A study of Oryza sativa with 6 samples.

Results

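In the BPH15 introgression line P15, 35 of the 174 tested rice miRNA sequences (20.1%) were called lower after 6 h of brown planthopper (BPH) feeding. The fed library (P15-6) was compared with the library without feeding (P15-0), and 0 sequences (0%) were called higher. A call needed at most 0.5 or at least 2 times the level and an unadjusted P under 0.05 in a test on the reads. The members are the entries of the expression table whose IDs mark them as known rice miRNAs, with entries of the same mature sequence counted once. They numbered 464 of 1898 entries and 337 distinct sequences, of which 308 had reads in P15-6 or P15-0 and 174 had at least 20 reads over both libraries and were tested. The calls depended on how the libraries were scaled, and 10 sequences were called lower under each of 4 scalings: library totals, TMM factors, median-of-ratios factors and clean reads as totals.

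BPH is a sap-sucking insect of the rice phloem, and the study followed the small RNAs of a resistant and a susceptible line through its feeding. P15 carries the resistance locus BPH15 in an elite indica background, and PC is the susceptible line that received it in breeding, without the locus. Each line gave 1 library after 6 h and 1 after 48 h with 8 nymphs on every seedling, and 1 library from plants without insects (0 h), so that there were 6 libraries of pooled tissue from 30 plants each. The sample labels name leaf sheaths of 3-week seedlings with 4 leaves, whereas the study's methods name stems of younger seedlings with 2 leaves. The same number of insects, the same pooling and the same sequencing applied to P15-6 and to the infested PC plants, and the introgression was shared by all 3 P15 libraries.

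Plant miRNAs are cut by a Dicer-like enzyme from a hairpin precursor as a duplex. One strand, the guide, is loaded into an Argonaute protein and directs cleavage or repression of messenger RNAs with a matching site, while the other strand (the star, or passenger strand) is mostly degraded. Many conserved families target transcription factors, such as miR156 (SPL factors), miR169 (NF-YA subunits) and miR160 and miR167 (auxin response factors), and others target genes of nutrient homeostasis or of the miRNA pathway itself, such as miR168 (the Argonaute AGO1).

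The mature sequences on which the comparison turns are shown as the expression table gives them, 5′ to 3′ and with T in place of U. Capitals mark the seed, bases 2 to 8, and sequences of 1 family stand together where they share it. The star strands miR156f-3p and miR156g-3p share 1 seed, the miR169 guides another, and the miR160 guides and the miR399 members have 1 each.
miR156g-3p: gCTCACTTctctctctgtcagc
miR156f-3p: gCTCACTTctctttctgtcagc
miR169a: cAGCCAAGgatgacttgccga
miR169c: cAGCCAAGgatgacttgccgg
miR169h: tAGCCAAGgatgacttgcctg
miR169n: tAGCCAAGaatgacttgccta
miR169r-5p: tAGCCAAGgatgatttgcctg
miR160e-5p: tGCCTGGCtccctgtatgccg
miR160f-5p: tGCCTGGCtccctgaatgcca
miR399a: tGCCAAAGgagaattgccctg
miR399j: tGCCAAAGgagagttgcccta
miR160f-3p: gCATTGAGggagtcatgcagg
miR169r-3p: tGGCAAGTctcctcggctacc
miR172d-5p: gCAGCACCatcaagattcac
miR168a-5p: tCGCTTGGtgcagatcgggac
miR168a-3p: gATCCCGCcttgcaccaagtgaat
miR530-5p: tGCATTTGcacctgcaccta
miR5083: aGACTACAattatctgatca
miR1431: tTTGCGAGttggcccgcttgc
miR531b: cTCGCCGGggctgcgtgccg
miR1862a: aCGAGGTTggtttattttgggacg

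The library total behind TPM, the scaled read count that the authors give for each entry, was 1644065 reads in P15-6 and 1426058 in P15-0, and 1078716 to 1343912 in the other libraries. A sequence with 0 reads may have up to 3, which is 1.82 TPM in P15-6 and 2.10 TPM in P15-0. The miR166 family, which targets HD-ZIP III factors, had summed reads equal to 79.1% of the library total in P15-6, against 70.3% in P15-0, and to 73.2 to 80.4% in the other libraries. These are not exact shares, since some reads count for more than 1 sequence. Of the distinct sequences, 273 had reads in P15-6 and 294 in P15-0. Each condition had 1 library, so no difference has a replicate check, the test on the reads compares these libraries and not the conditions, and intervals are 95% counting intervals that cover counting error only.

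Most of the tested sequences lay below P15-0. With library totals, the TPM ratio of P15-6 over P15-0 was below 1 for 144 sequences and above 1 for 30, and the median log2 ratio was -0.46 (quartiles -0.92 and -0.14). The counting interval lay below 1 for 87 sequences and above 1 for 8, and it held 1 for 79. A sequence was called at a ratio of at most 0.5 or at least 2 with an unadjusted P under 0.05 in edgeR's exact test without biological dispersion. With TMM factors, which take most sequences as unchanged, the median moved to 0.03, and 11 sequences (6.32%) were called lower and 5 (2.87%) higher. With median-of-ratios factors 10 were lower and 5 higher, and with the clean reads of each library as totals 17 were lower and 0 higher. Where the miR166 reads were left out of the totals, 11 were lower and 5 higher, and the 10 sequences lower under the 4 scalings were among these 11. The 35 calls therefore state shares of the miRNA reads, and 25 of them were not called under every scaling.

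**Figure D1:**
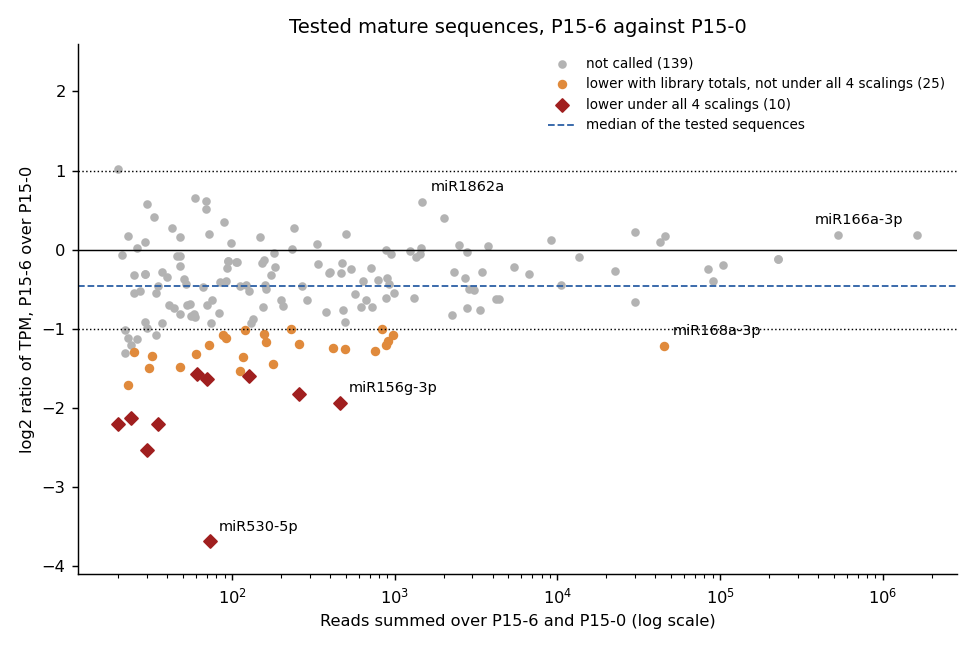
Each point is 1 of the 174 tested sequences, with the reads over both libraries on a log axis and the log2 ratio of TPM (P15-6 over P15-0, library totals) on the other; dotted lines mark 2-fold differences. The 10 diamonds are lower under all 4 scalings, and the median of all tested sequences (dashed) lies at -0.46 and not at 0.

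Of the 10 sequences called lower under all scalings, miR530-5p, a regulator of grain yield in rice, had the lowest ratio. It had 6 reads (3.65 TPM) in P15-6 and 67 reads (47.0 TPM) in P15-0, a ratio of 0.078 (0.028 to 0.178), or 12.9-fold lower. P15-48 had 27.8 TPM, and PC had 17.1, 8.74 and 15.6 TPM at 0, 6 and 48 h. P15-6 was thus the lowest of the 6 libraries and P15-0 the highest. Its precursor's other arm, miR530-3p, had 1 read in P15-6 and 9 in P15-0, too few to be tested.

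The deepest of the 10 were 2 star strands of miR156, whose guide strands hold back SPL factors in young plants. miR156g-3p had 106 reads (64.5 TPM) in P15-6 and 353 reads (248 TPM) in P15-0, a ratio of 0.260 (0.208 to 0.324). miR156f-3p had 63 reads (38.3 TPM) in P15-6 and 194 reads (136 TPM) in P15-0, a ratio of 0.282 (0.209 to 0.376). For both, P15-6 was the lowest and P15-0 the highest of the 6 libraries, with 95.5 and 62.1 TPM in P15-48. In PC, miR156g-3p had 182, 99.3 and 155 TPM at 0, 6 and 48 h, and miR156f-3p had 95.2, 68.3 and 104 TPM. The pair differs by T13C (base in miR156f-3p, position from the 5′ end, base in miR156g-3p), and the share of miR156f-3p relative to miR156g-3p was 59.4% in P15-6 and 55.0% in P15-0, a ratio of 1.08 (0.742 to 1.57).

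Members of miR169, miR160 and miR172 followed. miR169n had 19 reads (11.6 TPM) in P15-6 and 51 reads (35.8 TPM) in P15-0, a ratio of 0.323 (0.180 to 0.557). miR172d-5p, the star strand of a miR172 precursor whose guide targets AP2-type factors, had 35 reads (21.3 TPM) in P15-6 and 92 reads (64.5 TPM) in P15-0, a ratio of 0.330 (0.217 to 0.492). miR160f-3p, a star strand of miR160, had 17 reads (10.3 TPM) in P15-6 and 44 reads (30.9 TPM) in P15-0, a ratio of 0.335 (0.180 to 0.599). miR172d-5p was lowest in P15-6 of all libraries, whereas miR160f-3p was lower still in PC-48 (7.01 TPM). PC-6 had 45.3 TPM of miR169n against 29.0 in PC-0, a ratio of 1.56 in PC that did not pass the threshold of 2.

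The remaining 4 rested on few reads, with at most 7 in P15-6. miR5083 had 5 reads in P15-6 and 25 in P15-0 (ratio 0.173, 0.052 to 0.461), and miR1431 had 7 and 28 reads (0.217, 0.080 to 0.508). miR169a had 5 reads in P15-6 and 19 in P15-0 (0.228, 0.067 to 0.632). miR531b had 4 reads in P15-6 and 16 in P15-0 (0.217, 0.053 to 0.672). miR531b was close to absent from PC, with 0 reads in PC-6, 0 in PC-0 and 1 in PC-48, whereas P15-48 had 11 reads. Its longer relative miR531a, which starts with the same bases, had 14 reads in P15-6 and 23 in P15-0, a ratio of 0.528 (0.251 to 1.07), and 0, 0 and 1 reads in PC-6, PC-0 and PC-48. In TPM with library totals, 8 of the 10 sequences were lowest in P15-6 among the 6 libraries and 6 were highest in P15-0.

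**Figure D2:**
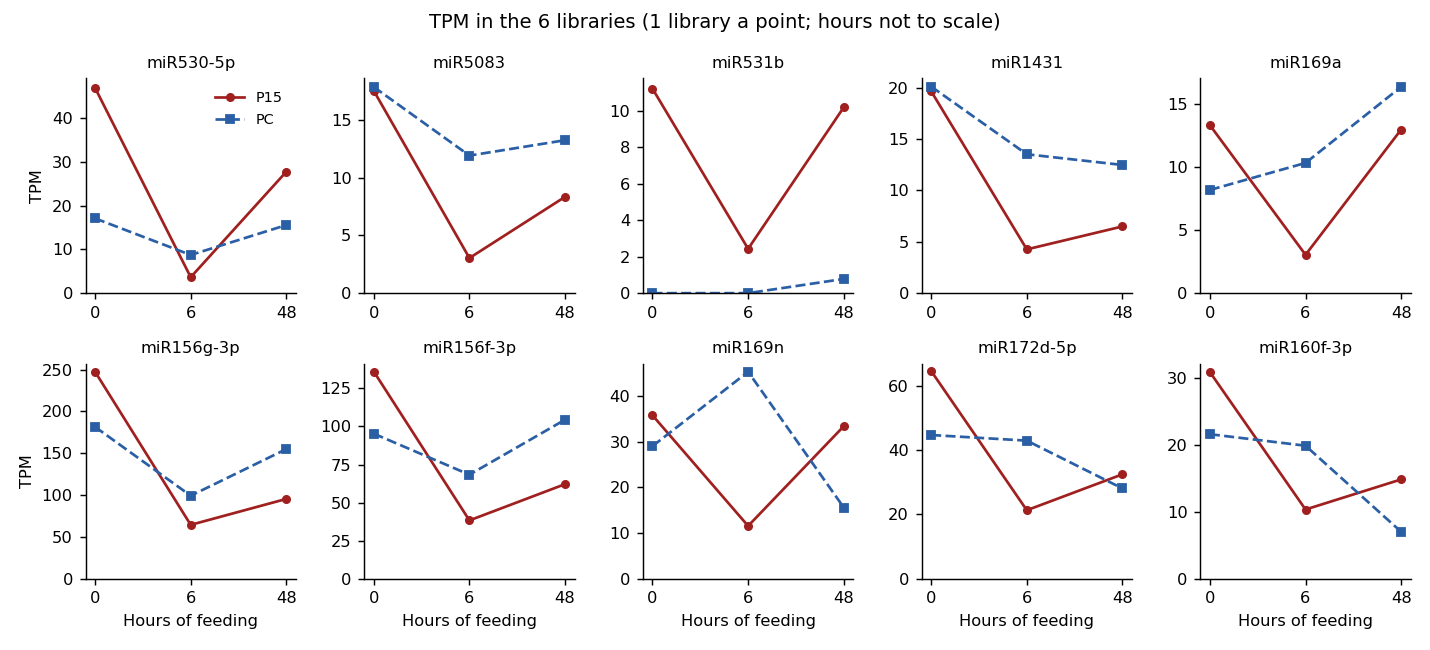
TPM (vertical axes from 0) of the 10 sequences lower under all 4 scalings, by hours of feeding, in P15 (solid) and PC (dashed), 1 library a point. P15 is lower at 6 h than at 0 h in every panel and, in TPM, higher again at 48 h. The library total was 1078716 reads in P15-48 and 1644065 in P15-6. In reads, miR1431 had 7 in P15-6 and 7 in P15-48, and miR156g-3p had 106 and 103. The rise to 48 h was not tested under the other scalings. miR531b is at or near 0 in all PC libraries.

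Across the 35 called sequences, in TPM with library totals, P15-6 was the lowest of the 6 libraries for 26. P15-0 was the highest for 21, and both held for 13. P15-48 lay above P15-6 for 34 of them and below P15-0 for 30. These counts only describe the calls, since a call needs a low P15-6 or a high P15-0. Over all 174 tested sequences, which the calls did not choose, P15-6 was the lowest for 85 (48.9%) and P15-0 the highest for 47 (27.0%). P15-48 lay above P15-6 for 128. These ranks were not taken with another scaling. Relative to the library total, the TMM total was 0.786 in P15-6 and 0.998 to 1.107 in the other libraries. With TMM, 85 of the 174 ratios over P15-0 were below 1, beside 144 with library totals.

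Among the families, miR169 had most of its members called. Of its 10 tested sequences 8 were lower (8 of 10 beside 20.1% of all tested), with a median log2 ratio of -1.31 (TMM -0.82), and all 10 ratios were below 1. With TMM, 3 of the 10 stayed called: miR169a, miR169n and miR169r-3p. The most abundant members, miR169h and miR169c, had 307 and 242 reads in P15-6 and 534 and 511 in P15-0, ratios of 0.499 (0.432 to 0.575) and 0.411 (0.351 to 0.480). miR169r-5p had 53 reads in P15-6 and 125 in P15-0 (0.368, 0.262 to 0.511), and its star strand miR169r-3p had 32 and 80 (0.347, 0.223 to 0.529), so both arms of this precursor were lower together. Among the 7 tested guides with the shared seed, 6 were called, and the exception was miR169f.1 with 85 reads in P15-6 and 121 in P15-0 (0.609). In TPM with library totals, P15-6 was the lowest of the 6 libraries for 9 of the 10 members. In PC the family's median log2 ratio at 6 h was 0.17, and ratios ran between 0.776 and 1.56.

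The auxin-related families were lower to different degrees. Of the 15 tested sequences of miR160, miR167, miR390 and miR393, the last of which targets TIR1-type auxin receptors, 6 were called lower, beside 20.1% of all tested, and the median log2 ratio was -0.73, beside -0.46 over all tested. In miR160 these were 3 of 4: miR160f-3p, miR160e-5p with 136 reads in P15-6 and 280 in P15-0 (0.421, 0.341 to 0.519) and miR160f-5p with 87 and 172 (0.439, 0.335 to 0.571). The most abundant member, miR160b-5p, had 254 reads in P15-6 and 365 in P15-0 (0.604) and was not called. In miR167 the called ones were miR167a-5p, miR167a-3p and miR167d-3p, 3 of 6, whereas the abundant miR167f had 11122 reads in P15-6 and 11604 in P15-0 (0.831). With TMM, miR160f-3p alone of these stayed called.

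In the phosphate list of miR399 and miR827, 2 of 4 tested sequences were called lower, and none of them with TMM. miR399 silences the ubiquitin-conjugating enzyme PHO2, which limits phosphate uptake, and miR399j had 294 reads in P15-6 and 586 in P15-0 (0.435, 0.377 to 0.501). miR399a had 32 reads in P15-6 and 60 in P15-0 (0.463, 0.291 to 0.722), and miR399d was not called at 1357 and 2001 reads (0.588). PC showed the same direction, with 158 reads of miR399j in PC-6 and 357 in PC-0 (ratio 0.473). Of the 5 tested sequences of the copper-related families miR397, miR398, miR408 and miR528, 1 was called, a share like the 20.1% of all tested, and none with TMM. This was miR528-3p, with 24 reads in P15-6 and 48 in P15-0 (0.434, 0.254 to 0.722). miR408-5p had 12 reads in P15-6 and 22 in P15-0 (0.473, 0.213 to 0.998) and did not pass the test.

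Single members were called in further families. miR1432-5p, known to act on calcium sensors of the EF-hand type, had 162 reads in P15-6 and 336 in P15-0 (0.418, 0.345 to 0.506). miR444a-3p.2, which targets MADS-box factors, had 345 reads in P15-6 and 633 in P15-0 (0.473, 0.413 to 0.540). miR6249a had 44 reads in P15-6 and 77 in P15-0 (0.496, 0.334 to 0.727). None of these was called with TMM, median-of-ratios or clean-read totals. The remaining calls were miR168a-3p, whose values are given with its guide, miR156b-3p, miR159a.2, miR169e, miR169i-5p.2, miR171c-5p, miR396e-3p, miR1846d-3p, miR5143a and miR5513, and the highest ratio of any called sequence was 0.499.

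In miR166, the most abundant family, all 16 sequences were tested and none passed, with a median log2 ratio of 0.04 (TMM 0.53). The median was 0.15 for the 6 guide sequences and -0.28 for the 10 star sequences (TMM 0.64 and 0.21). miR166a-3p had 928870 reads in P15-6 (564984 TPM) and 706492 in P15-0 (495416 TPM), a ratio of 1.14 (1.14 to 1.14). In miR396, which targets growth-regulating factors, 1 of 8 was called and the median was -0.11. The miR156 guides were not called, and the abundant miR156d had 42011 reads in P15-6 and 48076 in P15-0 (0.758, 0.748 to 0.768). The panicle-associated triggers of phased small RNAs, miR2118 and miR2275, had 149 summed reads in P15-6 and 149 in P15-0, not scaled to the library totals. Only 3 of their 10 sequences were tested, with a median log2 ratio of 0.16 (TMM 0.65).

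**Figure D3:**
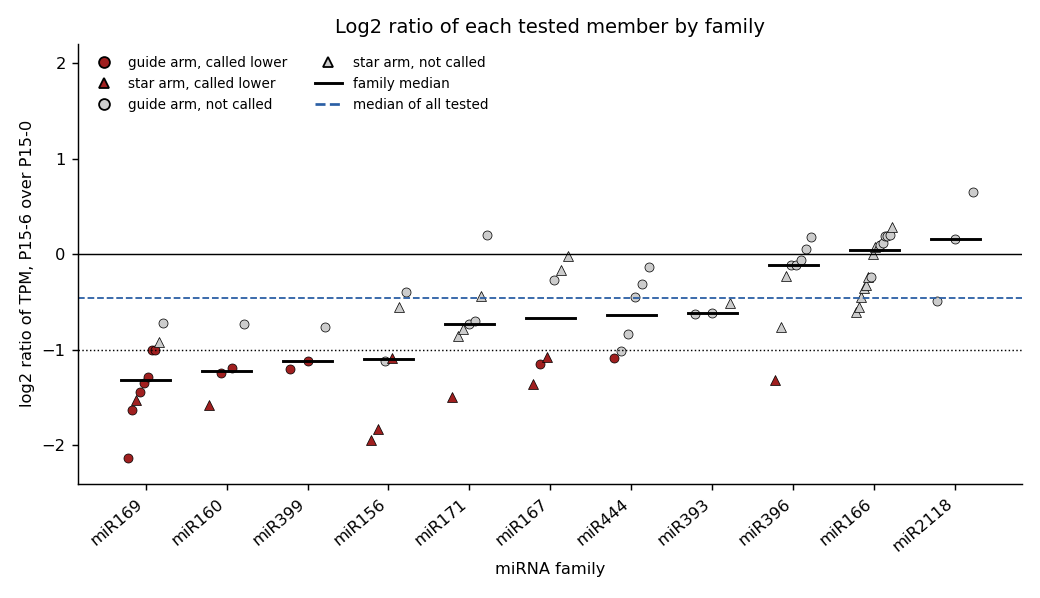
Each symbol is 1 tested sequence, with its log2 ratio of TPM (P15-6 over P15-0, library totals) by family; circles are guide arms, triangles star arms, filled symbols those called lower, and bars family medians. miR169 has the lowest median (-1.31), miR166 lies at 0.04, and the dashed line is the median of all tested sequences (-0.46).

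The 5 sequences called higher with TMM were also called with median-of-ratios factors, but not with library totals or clean reads. miR1862a had 932 reads (567 TPM) in P15-6 and 533 reads (374 TPM) in P15-0, a ratio of 1.52 (1.36 to 1.69). Its levels in PC were far lower, with 11 reads in PC-6 (8.74 TPM), 26 in PC-0 and 26 in PC-48, against 342 TPM in P15-48. The other 4 had fewer than 50 reads per library: miR2118b with 38 in P15-6 and 21 in P15-0, miR5508 with 44 and 25, miR1846d-5p with 43 and 26, and miR6246 with 14 and 6. Their counting intervals with library totals all held 1, as for miR6246 with a ratio of 2.02 (0.731 to 6.43).

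Star strands could be set against the guide entry that carries the name of the same precursor, which needs no library scaling. The comparison covered 36 precursors with a listed star arm and at least 20 reads on each arm over both libraries. The star-to-guide ratio was lower in P15-6 with an interval below 1 in 12 and higher with an interval above 1 in 0. The interval held 1 in 24. miR168a is the deepest case. The star miR168a-3p had 14891 reads (9057 TPM) in P15-6 and 30089 reads (21099 TPM) in P15-0, whereas the guide miR168a-5p had 52239 and 51686 reads. The star thus amounted to 28.5% of the guide in P15-6 and 58.2% in P15-0, a ratio of 0.490 (0.478 to 0.501). In P15-48 it was 63.7%, and in PC 52.5, 71.1 and 71.5% at 0, 6 and 48 h, so P15-6 stood below the other 5 libraries.

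In miR156 the star-to-guide ratio of the precursor miR156c changed by a factor of 0.382 (0.303 to 0.477) and that of miR156f by 0.372 (0.275 to 0.496). For miR156c the star was 1.21% of the guide in P15-6 and 3.18% in P15-0, and 1.81 to 2.35% in the other libraries. The others with an interval below 1 were miR396e at 0.434, miR396c at 0.520, miR172d at 0.547, miR167d at 0.573, miR166j at 0.593, miR166i at 0.688, miR166e at 0.718, miR166a at 0.741 and miR166k at 0.802. Of these 12, P15-6 had the lowest star-to-guide ratio of the 6 libraries for 7: miR156c, miR156f, miR166a, miR166j, miR167d, miR168a and miR396c. For miR396e it was P15-0 that stood apart, with 0.037%, against 0.016% in P15-6 and 0.0060 to 0.019% in the other libraries, and for miR172d P15-48 (39.3%) and PC-48 (46.8%) lay below P15-6 (54.7%). Several of these precursors share a guide sequence, so the 36 are not independent and the guide reads cannot be assigned to 1 precursor. The guide entries of miR156c and miR156f have 1 mature sequence but held 8666 and 41879 reads in P15-6, so such percentages depend on the copy. For miR168a, guide and star have 1 entry each. By strand, 12 of 36 tested star sequences were called lower (median log2 ratio -0.73), beside 20.1% of all tested. Calls numbered 15 of 55 other sequences of the same families (-0.70) and 8 of 83 sequences of other families (-0.31). With TMM they numbered 5 of 36, 3 of 55 and 3 of 83, beside 6.32% of all tested. The TMM medians were -0.24, -0.21 and 0.18.

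**Figure D4:**
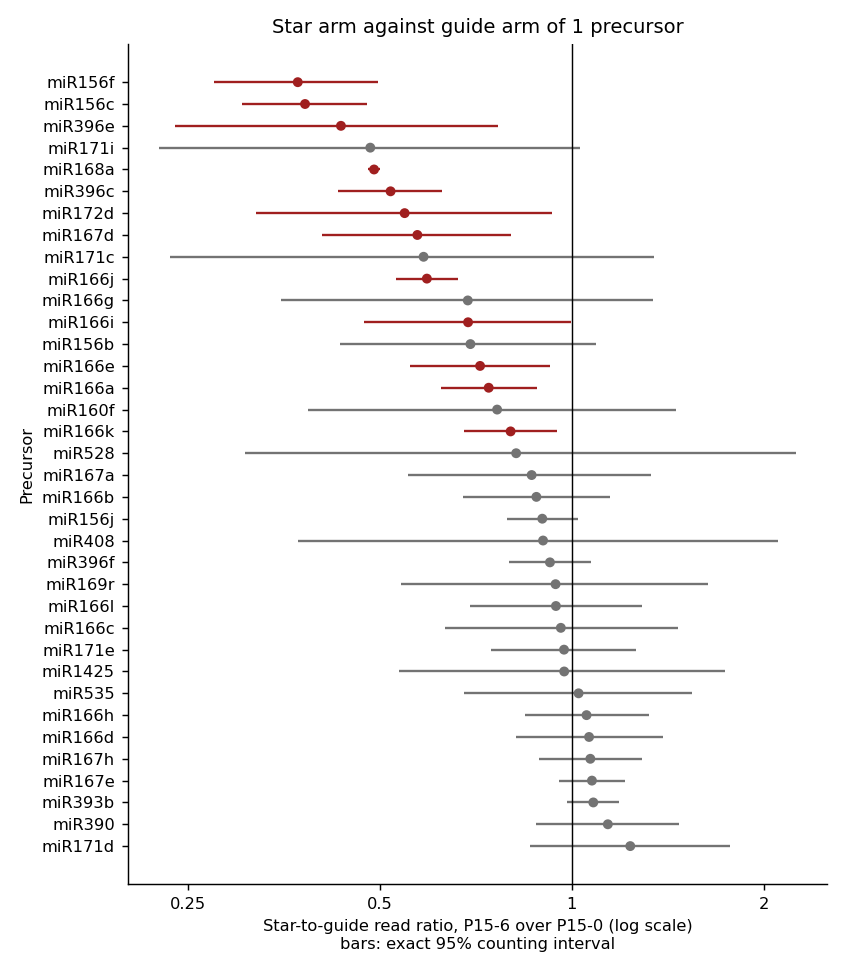
Change of the star-to-guide read ratio (P15-6 over P15-0, log axis) for 36 precursors, with exact 95% counting intervals. The 12 red precursors have intervals below 1, with miR168a at 0.490, and none has an interval above 1.

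Sequences of 1 length that differ at a single base gave another scaling-free comparison. Tokens give the rarer sequence's base, the position from the 5′ end and the more abundant sequence's base. miR167a-5p differs from miR167f by A21G, and amounted to 2.80% of it in P15-6 and 5.15% in P15-0, a ratio of 0.543 (0.470 to 0.625), beside 4.07 to 4.80% in the other libraries. miR399j differs from miR399d by A21G and amounted to 21.7% in P15-6 and 29.3% in P15-0 (0.740, 0.631 to 0.867), beside 22.2% in PC-0. miR160e-5p differs from miR160b-5p by G21A, with 53.5% in P15-6 and 76.7% in P15-0 (0.698, 0.533 to 0.912), beside 57.9% in PC-0, so that neither stood apart from the unfed PC library in P15-6. An interval above 1 was found for miR444f, which differs from miR444a-3p.2 by T9C and amounted to 23.5% in P15-6 and 12.2% in P15-0 (1.93, 1.36 to 2.75). Of 25 such pairs the interval lay below 1 for 8 and above 1 for 3, and it held 1 for 14. Reads may be shared between such sequences, since the reads of the distinct sequences summed to 107% of the total in P15-6, against 103% in P15-0.

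By length, the 101 tested sequences of 21 nt had a median log2 ratio of -0.63 with 22 called lower (21.8%, beside 20.1% of all tested), and the 40 of 24 nt, the length that also marks siRNAs, had a median of -0.28 with 3 called lower (7.5%). With TMM, 5 of the 101 and 0 of the 40 were called lower, and the difference between the classes was not tested. By depth, calls numbered 16 of 72 sequences with fewer than 100 reads over the pair, 18 of 64 with 100 to under 1000, 0 of 23 with 1000 to under 10000 and 1 of 15 with 10000 or more, which was miR168a-3p. Of the 35 calls, 4 had under 20 reads in both libraries, and the test can call such a sequence at a large ratio alone.

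With library totals, sequences with too few reads to be tested leaned the same way, and this was not counted with another scaling. Of 134 such sequences, 98 had a lower TPM in P15-6 and 36 a higher one, with 309 summed reads in P15-6 and 453 in P15-0. Reads in P15-6 alone were found for 14 sequences, none with more than 2 reads, and reads in P15-0 alone for 35, none with more than 5. Some copies of 1 mature sequence hold different reads in the table, such as miR169b with 44 reads in P15-6 and 80 in P15-0, and miR169c with 242 and 511. The copy with most reads stands for the sequence.

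Of 173 sequences tested in PC-6 against PC-0, 8 (4.62%) were lower and 2 (1.16%) higher with library totals. With TMM, 3 (1.73%) were lower and 5 (2.89%) higher, beside 11 lower and 5 higher in P15. With library totals, the lower calls shared with P15 were miR399a, miR399j and miR6249a, 3 sequences that make up 8.57% of those of P15 and 37.5% of those of PC. Over the 35 sequences the median log2 ratio in PC was -0.25, beside -0.06 over all tested. The difference itself, the log2 ratio in P15 minus that in PC, uses 4 separate libraries. It was at most -1 with a counting interval below 0 for 29 of the 174 sequences (16.7%) and at least 1 with an interval above 0 for 2 (1.15%), and its median over all tested was -0.33 with library totals and 0.01 with TMM. With TMM, 10 were lower and 2 higher.

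miR169n and miR160e-5p were among the sequences that differed between the lines under both scalings. miR160e-5p had 136 reads in P15-6 and 280 in P15-0, against 228 in PC-6 and 162 in PC-0, a difference of -1.83 (-2.24 to -1.42). miR169n differed by -2.24 (-3.19 to -1.29), and miR172d-5p, at 54 reads in PC-6 and 60 in PC-0, by -1.53 (-2.30 to -0.76). On the other side, miR159f, of the family that targets GAMYB-type factors, had 1218 reads in P15-6 and 802 in P15-0 but 543 in PC-6 and 904 in PC-0, a difference of 1.04 (0.84 to 1.24). miR1862a differed by 1.71 (0.70 to 2.72). Of the 10 sequences lower under all 4 scalings, 9 passed the threshold of the difference with library totals and 5 with TMM: miR530-5p, miR169a, miR169n, miR172d-5p and miR156f-3p. They were chosen on the P15-6 and P15-0 reads that also enter the difference, so this is a description.

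**Figure D5:**
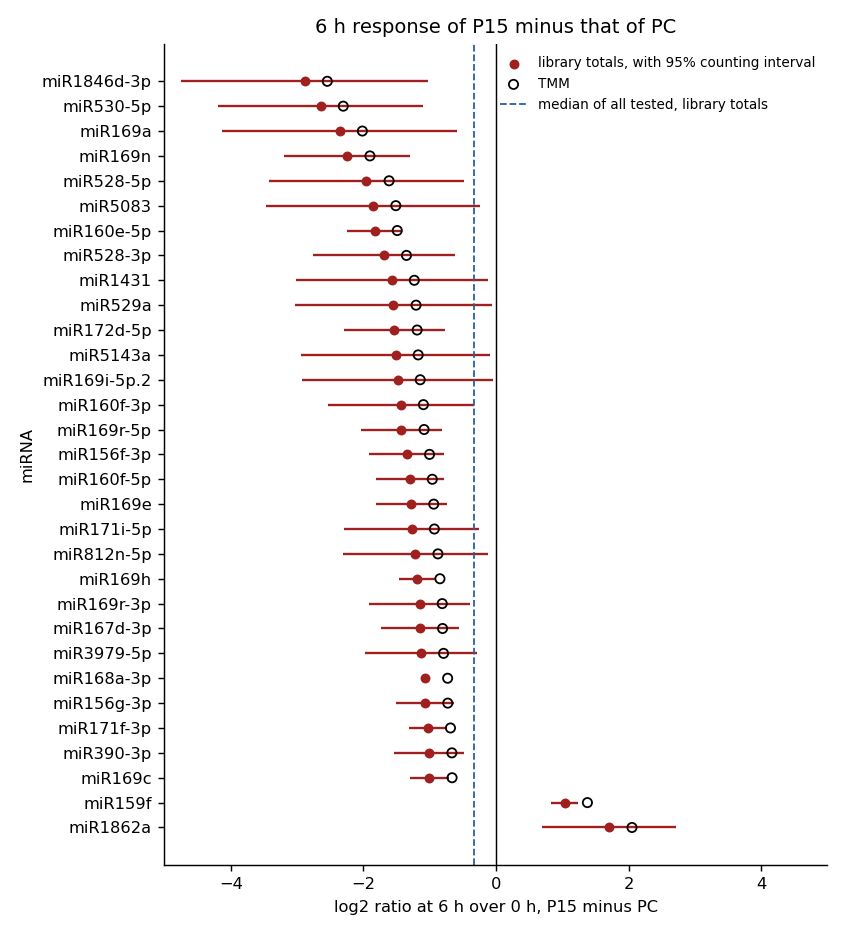
Log2 ratio at 6 h over 0 h in P15 minus that in PC for the 31 sequences past the threshold with library totals (filled, with 95% counting intervals) and the same with TMM (open). Of these, 29 are lower and 2, miR159f and miR1862a, are higher, and the dashed line is the median of all tested sequences (-0.33).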

How the data were processed

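The miRNA reads of 6 libraries were analysed. Per the study's methods, clean reads of at least 18 nt were freed of other RNA classes and matched to miRBase release 21, followed by the miRNAs known from further plants and by predicted ones. Aligner and mismatches: not given in the sources used here. For each entry and library the authors deposited a read count, and TPM made from it, with 0 reads written as 0.01. Library totals were computed back from both, and TPM equalled count over total within 0.000123%. Columns of other samples numbered 0. Fold changes are ratios of TPM with exact intervals (Clopper-Pearson on the split of the reads). Calls came from edgeR 4.0.16 (exactTest, dispersion 0) in R 4.3.3 at unadjusted P, on distinct sequences with at least 20 reads over the pair. The calling rule was run on reads simulated without biological dispersion and with the library totals as true scaling. That simulation cannot check the dispersion or the scaling. Strand and single-base ratios have exact conditional intervals. Differences between lines have intervals from the 4 counts. Python 3.11.15, numpy 2.4.6, pandas 2.3.3, scipy 1.17.1 and matplotlib 3.10.9 made the other steps.

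Members, lists and rules were chosen with earlier results of these data known. Named were the 20 called sequences with the largest absolute log2 ratios and at least 20 reads, the 5 highest ratios, the 10 most abundant, miRNAs that the study's text names and family examples. Sequences outside this rule, such as miR169a, miR6246, miR1846d-3p, miR159f and miR528-5p, were picked with their values in view. Other scalings, filters, thresholds and dispersions were tried. Sequence coordinates are not analysed here.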

Additional observations from a re-analysis of the deposited data

Results flagged for a closer look

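The log2 ratio at 6 h over 0 h differed between P15 and PC for 12 sequences, by at least 1 with a counting interval that excluded 0, with library totals and with TMM. Values are P15 minus PC with library totals. No replicate stands behind them, and other sequences passed with library totals alone. Not all kept a difference of 1 with median-of-ratios factors, where miR169r-5p differed by -0.95 and miR156f-3p by -0.87.

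Lower in P15 were miR1846d-3p by -2.89, with 6 reads in P15-6 and 17 in P15-0 but 14 in PC-6 and 6 in PC-0, and miR530-5p by -2.65, where PC-6 had 11 reads and PC-0 had 23. The other arm of that precursor, miR530-3p, went the opposite way, by 0.94 with library totals and 1.29 with TMM. It had too few reads to be tested. miR169a differed by -2.36, miR169n by -2.24 and miR169r-5p by -1.43. miR528-5p, which targets copper proteins, differed by -1.95, with 11 reads in P15-6 and 18 in P15-0 but 22 in PC-6 and 11 in PC-0. Its listed star strand miR528-3p differed by -1.69. That arm was the more abundant here, at 218% of miR528-5p in P15-6 and 267% in P15-0. miR160e-5p differed by -1.83, miR172d-5p by -1.53 and miR156f-3p by -1.34. Higher in P15 were miR159f by 1.04 and miR1862a by 1.71, the last with 932 reads in P15-6 and 533 in P15-0 against 11 in PC-6 and 26 in PC-0.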

How the results depend on the processing

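The count of lower calls moved from 35 with library totals to 11 with TMM, 10 with median-of-ratios factors, 17 with clean reads as totals and 11 without the miR166 reads, and the count of higher calls moved from 0 to 5, 5, 0 and 5. Centring on the median of sequences with at least 100 reads, a scaling chosen after seeing the data, gave 13 lower and 4 higher. In PC, TMM, also added after seeing the data, moved the lower calls from 8 to 3 and the higher calls from 2 to 5. The median log2 ratio turned from -0.46 to 0.033 with TMM, 0.076 with median-of-ratios factors and 0.052 without miR166, and was -0.16 with clean reads; these scalings differ by construction in the total that they divide by. A minimum of 100 reads, with fewer sequences tested, left 19 lower, a 1.5-fold threshold gave 60 lower and 1 higher, and a biological coefficient of variation of 0.4 left 5 lower. The difference between lines for miR167a-5p turned from -0.45 to 0.025 with median-of-ratios factors. The remaining settings (every entry counted, the copy with fewest reads, no filter, counting intervals, a coefficient of 0.2, adjusted P) kept the lower count between 33 and 52. No replicate could be left out. No paired analysis was possible because each condition has 1 library. Depth limits the sequences under 20 reads, where only large ratios can be called.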

Other observations

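Entries that the table assigns to other plants or to predicted precursors gave 216 further distinct sequences with at least 20 reads over P15-6 and P15-0. Of these, 16 were called lower and 0 higher with library totals, beside 35 of 174 (20.1%) lower among the known rice sequences. Their median log2 ratio was -0.26, beside -0.46. No other scaling was applied to them.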
